A study of Rattus norvegicus with 24 samples.

Results

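Of 24 RNA-seq libraries of nucleus accumbens (NAc) from 14-day-old rats, the 6 with the most Avp mRNA were compared with the 6 with the least. The libraries were chosen by their Avp value alone, so they are not groups of the study. The 12 libraries that the same ranking left between them were kept for a separate fit. The study exposed Sprague Dawley rats to the opioid oxycodone (oxy) or to saline (SAL) and followed 2 generations, with 4 libraries in each of 6 groups. In utero exposed (IUO) pups came from F0 dams gavaged with oxy from 10 up to 15 mg/kg/day before mating and on through gestation until weaning. Postnatally exposed (PNO) pups came from F0 dams given 15 mg/kg/day from parturition until weaning. The F2 pups were born to F1 females that received no further drug and had been mated with naive males. The labels give no sex or litter for a pup, so any p-value measures the spread between these libraries only. Values are FPKM, fragments scaled by transcript length and by the library's mapped total, and the read depth behind them is unknown.

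Avp encodes vasopressin and Oxt encodes oxytocin, the peptides that magnocellular neurons of the paraventricular and supraoptic nuclei make and send to the posterior pituitary. Otp, a homeodomain transcription factor, is needed for these neuroendocrine neurons to form. Vasopressin cell bodies also lie in the suprachiasmatic nucleus, the bed nucleus of the stria terminalis and the medial amygdala, whereas the NAc is made up mainly of striatal medium spiny neurons. Striatal identity was present in all 24 libraries, with Drd1 at 6.87 to 27.2 FPKM, Drd2 at 15.8 to 69.2 FPKM and Ppp1r1b, which encodes DARPP-32, at 167 to 549 FPKM.

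In the Avp-high libraries Avp ran from 47.6 through a median of 76.9 to 199 FPKM, and in the Avp-low libraries from 1.09 through a median of 1.95 to 2.80 FPKM. These values define the comparison and carry no test. The last library taken on the high side was F2 PNO replicate 1 at 47.6 FPKM and the first left out was F1 SAL replicate 3 at 29.0 FPKM. On the low side the last taken was F1 SAL replicate 4 at 2.80 FPKM and the first left out was F2 SAL replicate 2 at 3.43 FPKM, so the lower boundary falls in a near-continuous run of values. The Avp-high libraries were 2 of F1 IUO, 2 of F2 SAL, 1 of F2 IUO and 1 of F2 PNO. The Avp-low libraries were 3 of F1 PNO, 2 of F2 PNO and 1 of F1 SAL, so exposure and generation were unevenly spread over the sides. In bulk tissue, fewer cells of a type and less RNA per cell cannot be told apart.

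Oxt was the gene that differed most after Avp. It ran from 23.03 through a median of 48.5 to 135 FPKM in the Avp-high libraries and from 0.34 through a median of 2.36 to 6.0 FPKM in the Avp-low libraries. The sides did not overlap, and the mean of log2(FPKM + 0.1) was 5.68 ± 0.82 (SD, n = 6) against 1.05 ± 1.38 (SD, n = 6), a difference of 4.62. The peptides did not keep a fixed ratio. Avp exceeded Oxt in 14 of the 24 libraries and Oxt exceeded Avp in 10, with Avp over Oxt between 0.309 and 6.24. The highest Oxt value, 135 FPKM in F2 IUO replicate 3, was in the library next in Avp after the F2 SAL pair, and the highest Avp value, 199 FPKM in F2 SAL replicate 4, went with 56.9 FPKM of Oxt. When the highest and the lowest Avp library were taken within each of the 6 study groups, Oxt was higher in the Avp-rich library in 6 of 6 pairs, with a mean difference of 2.93 on the log2 scale. These pairs were again chosen by Avp and held many of the same libraries. Gp1bb, Lhx1, Taf9 and Commd5 were among other genes also higher in 6 of 6 pairs. The share over all genes was not computed.

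**Figure D1:**
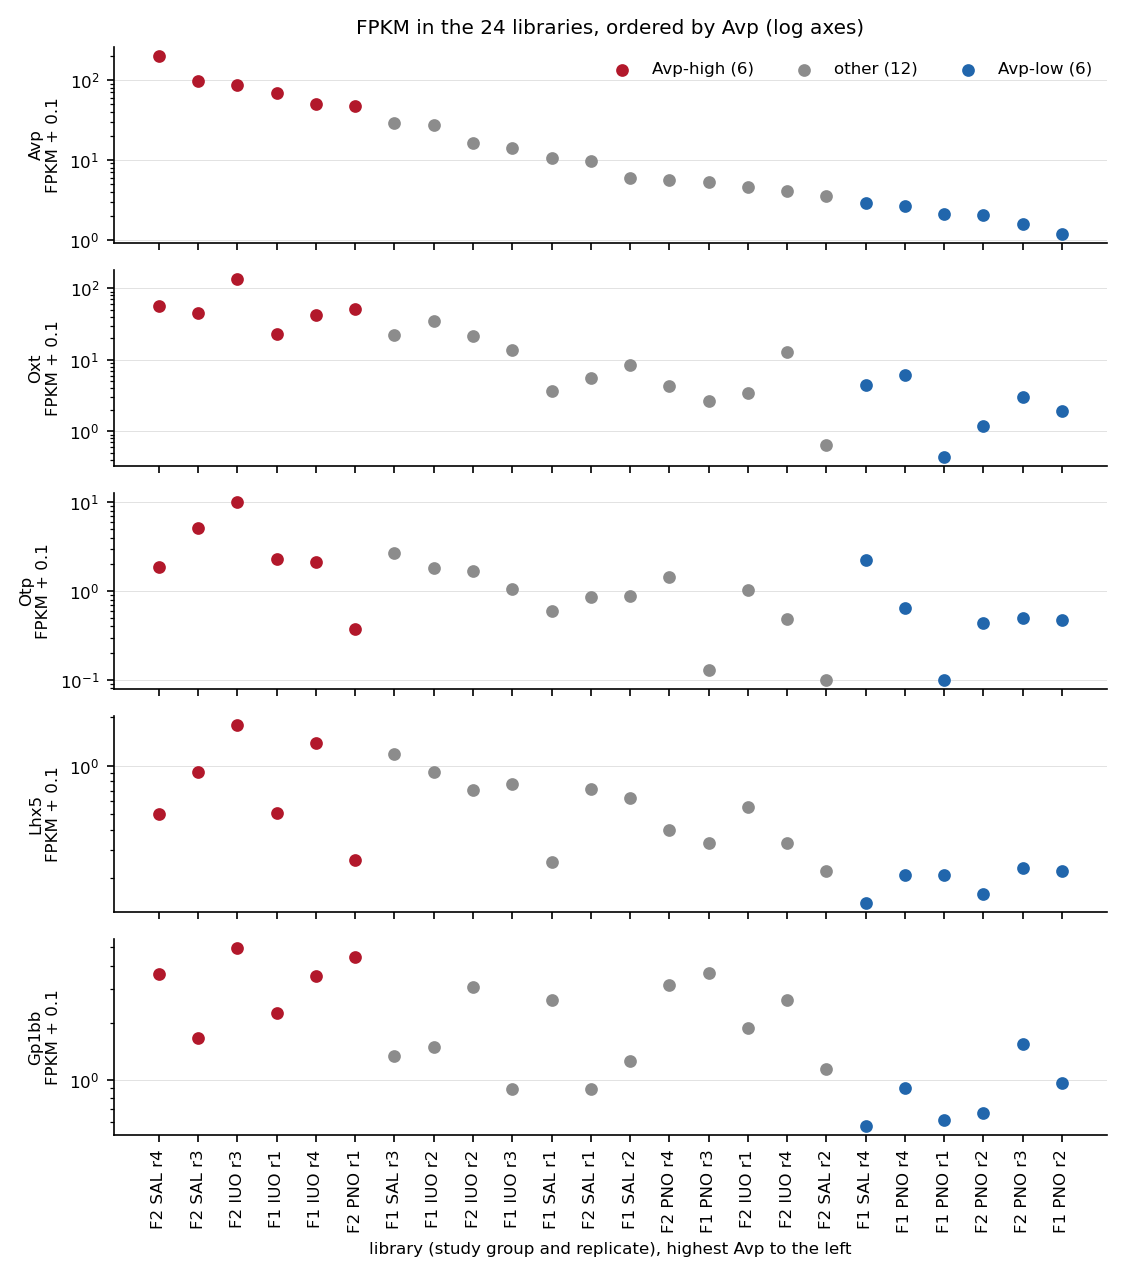
FPKM + 0.1 (log axes) of Avp, Oxt, Otp, Lhx5 and Gp1bb in each of the 24 libraries, ordered from the highest Avp value on the left to the lowest on the right, with the 6 Avp-high libraries in red, the 6 Avp-low libraries in blue and the 12 others in grey. Oxt falls from left to right through the grey libraries as well, while Gp1bb separates red from blue but shows no such course between them.

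Avp and Oxt are neighbours on rat chromosome 3 and are transcribed towards each other. Their promoters are shown because Oxt was the gene that differed most after Avp. The windows below are from RefSeq on GRCr8 and run from 250 bases before to 50 bases after the annotated start, with Avp at chr3:138248473-138248772 on the minus strand and Oxt at chr3:138235504-138235803 on the plus strand. The build used for the expression files is not given in the sources used here. Capitals mark matches, on either strand, to 3 sets of letters that do not overlap in these windows: the E-box CACGTG, the nuclear receptor half-site TGACCT, and TAATTA, the core that many homeodomain proteins bind.
Avp: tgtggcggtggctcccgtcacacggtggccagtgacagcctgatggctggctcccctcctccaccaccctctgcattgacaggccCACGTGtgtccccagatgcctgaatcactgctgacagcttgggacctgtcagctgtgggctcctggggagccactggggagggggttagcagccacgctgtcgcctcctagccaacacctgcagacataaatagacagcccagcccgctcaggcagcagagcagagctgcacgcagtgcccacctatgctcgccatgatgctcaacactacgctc
Oxt: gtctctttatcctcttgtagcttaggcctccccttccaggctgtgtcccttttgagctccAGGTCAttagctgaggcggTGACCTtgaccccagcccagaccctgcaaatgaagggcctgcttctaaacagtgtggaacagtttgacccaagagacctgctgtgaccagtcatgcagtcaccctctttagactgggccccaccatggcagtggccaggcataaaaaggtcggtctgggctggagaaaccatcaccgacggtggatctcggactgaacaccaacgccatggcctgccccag
The Avp window held 1 E-box and the Oxt window held 2 half-sites, 1 on each strand, and neither held TAATTA. Over all 33469 promoter windows of the same length, 6.42% held the E-box, 16.2% the half-site and 5.36% TAATTA. A match is a description of letters and not of binding. Of the other 6 nearest protein-coding genes, 3 on each side in RefSeq order, 5 were matched in the files. None of the 5 separated the sides, with differences from -0.03 for Ptpra to 0.19 for Mrps26 on the log2 scale.

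Otp, the other marker named with Avp, was higher on average but its libraries overlapped. It ran from 0.27 through a median of 2.13 to 9.97 FPKM in the Avp-high libraries and from 0.00 through a median of 0.385 to 2.16 FPKM in the Avp-low libraries, a difference of 2.26 on the log2 scale. Only 3 of the 6 Avp-high libraries lay above every Avp-low library. F2 PNO replicate 1, with 47.6 FPKM of Avp and 51.9 FPKM of Oxt, had 0.27 FPKM of Otp, and F1 SAL replicate 4, with 2.80 FPKM of Avp, had 2.16 FPKM of Otp. The markers given for the Avp-high libraries therefore held for Oxt in every library and for Otp in part.

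Besides Avp, 31 of 17135 genes were higher in all 6 Avp-high than in all 6 Avp-low libraries (0.181% of the genes tested), among genes with at least 0.1 FPKM in 6 or more of the 12. A further 32 were lower in all 6 (0.187%). These counts describe libraries picked by Avp and have no test. Of the 31, 3 were on one of the 8 hypothalamic gene lists, which hold 78 genes besides Avp, and 28 were on none. Genes are called hypothalamic here for their place on these lists only, and some may also be expressed in other tissue of the samples. The 3 were Oxt, Lhx5 and Lhx1, which are 5.66% of the 53 list entries compared, beside 0.181% of all genes. A gene could pass the filter through the 6 Avp-high libraries alone. Lhx1 did so, with 0.00 to 0.10 FPKM in the Avp-low libraries, so its place among the 3 follows in part from the filter. Over all 17135 genes the median difference was -0.03, and 45.9% of genes had a positive one.

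Lhx5 and Lhx1 encode related LIM homeodomain transcription factors, Lhx5 of the developing mammillary region and Lhx1 of the suprachiasmatic nucleus, where it is needed for the terminal differentiation of its neurons. Lhx5 ran from 0.16 through a median of 0.61 to 1.69 FPKM in the Avp-high libraries and from 0.04 through a median of 0.11 to 0.13 FPKM in the Avp-low libraries. Lhx1 ran from 0.12 through a median of 0.34 to 0.59 FPKM and from 0.00 through a median of 0.03 to 0.10 FPKM. Both separated the sides, with differences of 1.92 and 1.52, but the lowest Avp-high and the highest Avp-low values were close for both and the levels were near the bottom of the measured range. Adding 0.1 FPKM before taking logs understates a change at such levels.

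Of the 28 genes outside the hypothalamic lists, Gp1bb, which encodes a platelet glycoprotein, differed most. It ran from 1.57 through a median of 3.47 to 4.85 FPKM against 0.47 through a median of 0.69 to 1.45 FPKM, a difference of 1.95. Its RefSeq span lies within that of Septin5, so reads of the overlapping genes may not have been told apart. Of the 31 genes, 6 differed by more than 1 on the log2 scale and 17 by less than 0.5. The other 2 that differed by more than 1 were AABR07068955.1 at 1.68 and LOC103693375 at 1.40, which the files describe as resembling an elongin subunit and a ribosomal protein of the large subunit, so reads may be shared with their parent genes.

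Taf9, a subunit of the general transcription factor TFIID, differed by 0.999, at 11.1 to 37.3 FPKM against 8.20 to 10.7 FPKM. Commd5 differed by 0.79, the mono-ADP-ribosylhydrolase gene Macrod1 by 0.68, and Ddah2, whose product is related to enzymes that break down methylated arginine, by 0.63. Next came the monocarboxylate transporter gene Slc16a11 at 0.55 and the sorting nexin gene Snx33 at 0.53. Tnfrsf1a, the tumour necrosis factor receptor, differed by 0.42, followed by Sorbs3 and the heparan sulphate proteoglycan gene Sdc4, both at 0.40, and Rhbdf1 at 0.39. The abundant Ptms ran from 1008 to 1204 FPKM against 776 to 957 FPKM, a difference of 0.36. Mrpl45, Lamp1, Mospd3, Tbl3, Atg101 and Lhpp completed the named genes, with differences between 0.26 and 0.33. AABR07041949.1 and AABR07052519.1, described in the files as resembling Sox3 and a ribosomal protein, differed by 0.87 and 0.84. The Sox3-like entry ran from 1.44 to 3.23 FPKM against 0.95 to 1.41 FPKM. None of these genes is a hypothalamic marker on the lists used, which do not include Sox3 either.

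The 32 genes that were lower in all Avp-high libraries held no hypothalamic gene. RF00086, a non-coding RNA family entry, differed most at -2.74, with 0.00 to 2.75 FPKM against 2.91 to 5.15 FPKM. Tmem54 followed at -1.54, with 0.83 to 2.13 FPKM against 2.33 to 7.15 FPKM, and Btbd8 at -1.12, with 2.10 to 4.86 FPKM against 5.93 to 12.9 FPKM. Slc19a2, a thiamine transporter gene, was at -0.94, and Ctgf, a matricellular protein gene, at -0.89. Kif20b and Dtl, which act in cell division and in DNA replication control, were at -0.88 and -0.75, and AC097784.1, Zfp136 and the glycerol kinase gene Gk lay between -0.72 and -0.64.

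The hypothalamic lists were then read by region. Of the 78 listed genes other than Avp, 5 were not matched by name, and Gnrh1 has 2 entries in the files. Of the 74 entries, 53 had enough signal to be compared, 31 of the 53 had a positive difference, and their median was 0.22 beside -0.03 over all genes. The other 21 were at most 1.03 FPKM in any of the 12 libraries. Of the 8 magnocellular genes compared, 2 differed by more than 1, Oxt and Otp, 5 had a positive difference and 1 did not overlap, and the median was 0.27. Sim1, the transcription factor that acts with Arnt2 upstream of this lineage, reached at most 0.48 FPKM in the Avp-high and 0.07 FPKM in the Avp-low libraries and fell below the filter. Pou3f2 and Creb3l1 differed by 0.34 and 0.20 and Arnt2 by -0.02, with overlap in each case. Caprin2, which binds vasopressin mRNA, had the smallest difference at -0.32.

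**Figure D2:**
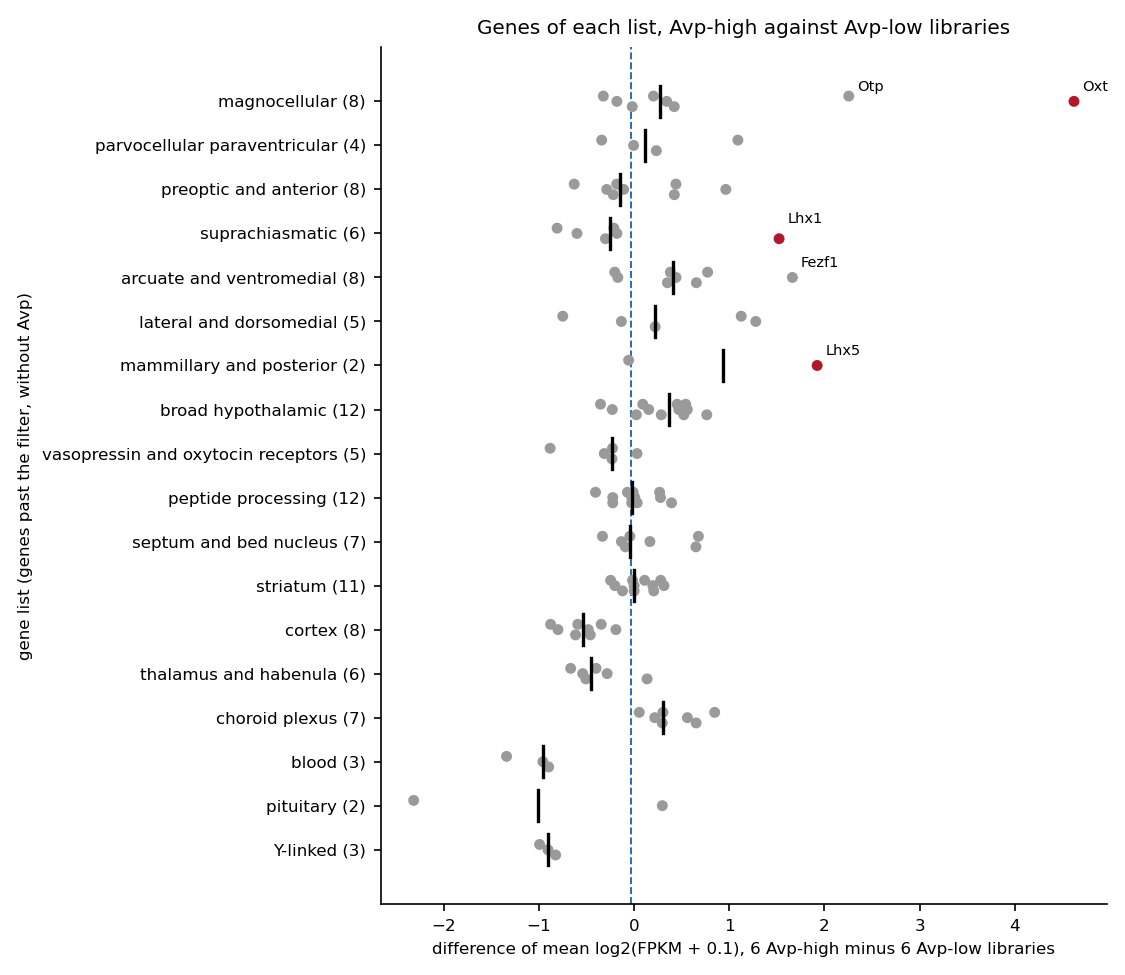
Difference of mean log2(FPKM + 0.1), 6 Avp-high minus 6 Avp-low libraries, for each gene of each list past the filter (points, number in parentheses), with the list's median as a black bar and the median of all 17135 genes as a dashed line. Red points are the 3 genes whose libraries did not overlap, Oxt, Lhx1 and Lhx5, and Otp lies next to Oxt in order of difference on the magnocellular list. On the list of Lhx1 the other 5 genes lie below 0, down to -0.81 for Vip.

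No preoptic or anterior hypothalamic gene separated the sides. Of the 8 compared, 3 had a positive difference, and the median was -0.15. Of these 8, Vax1, a ventral forebrain homeodomain factor, differed most at 0.96, with 1.21 to 3.37 FPKM against 0.70 to 1.34 FPKM. The neuropeptide gene Gal ran from 3.50 to 12.1 FPKM against 2.85 to 5.44 FPKM, and Gnrh1 had its compared entry at -0.63. The steroid receptor genes Esr1 and Pgr were at -0.11 and -0.22. Hmx2 and Hmx3, homeodomain factors of the preoptic area, fell below the filter and out of these counts. Hmx3 reached 0.78 FPKM in the Avp-high and 0.09 FPKM in the Avp-low libraries, and Hmx2 reached 0.42 and 0.24 FPKM. Their differences, 1.26 and 0.97, were above that of Vax1 but rest on values near 0. Also below the filter, Kiss1 and Esr2 differed by 0.72 and 0.20, and Opn5 and the lower Gnrh1 entry by -0.04 and -0.44.

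Of 6 genes compared on the suprachiasmatic list, 1, Lhx1, had a positive difference, and the median was -0.26. Vip, the peptide of the core of that nucleus, ran from 0.85 through a median of 2.12 to 3.78 FPKM in the Avp-high libraries and from 2.28 through a median of 3.70 to 5.00 FPKM in the Avp-low libraries, and the sides overlapped. Six6 was listed at 0 in every Avp-low library and reached 0.41 FPKM in the Avp-high libraries. Of the parvocellular genes, Trh, which encodes thyrotropin-releasing hormone, ran from 5.55 to 30.3 FPKM against 3.26 to 15.6 FPKM, and Crh from 2.59 to 7.22 FPKM against 1.97 to 5.09 FPKM. Both overlapped, with differences of 1.09 and 0.23, and the median of the 4 genes on the parvocellular list was 0.11. Ntng1 was the lowest of the 4 at -0.34. Its highest value, 30.7 FPKM, was also in F1 PNO replicate 2, so this median need not describe parvocellular neurons.

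The lateral hypothalamic peptides had large differences that came from a few libraries. Hcrt, which encodes the arousal peptide hypocretin, ran from 0.87 through a median of 1.59 to 41.3 FPKM against 0.38 through a median of 1.16 to 3.14 FPKM, and only 2 Avp-high libraries lay above every Avp-low library. Pmch, which encodes melanin-concentrating hormone, ran from 0.09 to 22.6 FPKM against 0.00 to 16.1 FPKM, and only F1 IUO replicate 4 lay above every Avp-low library. F1 IUO replicate 4 held the highest value of both among the Avp-high libraries, while F2 SAL replicate 4, with the most Avp, had 1.31 FPKM of Hcrt and 0.67 FPKM of Pmch. The median of the 5 lateral and dorsomedial genes was 0.22.

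Among 8 arcuate and ventromedial genes, 6 had a positive difference and none separated the sides, with a median of 0.41. Fezf1, a zinc finger factor of the ventromedial nucleus, differed most at 1.66, and 5 of the 6 Avp-high libraries lay above all Avp-low libraries, the exception being F1 IUO replicate 4 at 0.10 FPKM. Pomc and Agrp, whose neurons in the arcuate nucleus act in opposition on feeding, differed by 0.38 and 0.77 and overlapped. In the mammillary and posterior list only Lhx5 and Foxb1 passed the filter, and Foxb1 was at -0.06. Of the 12 broadly hypothalamic genes, 10 had a positive difference, none separated the sides, and the median was 0.37. Ecel1 differed most at 0.76, with 8.20 to 16.3 FPKM against 4.79 to 8.41 FPKM, and Asb4 least at -0.35. Nkx2-1, the regional transcription factor, ran from 1.44 to 4.85 FPKM against 2.04 to 3.51 FPKM.

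Genes for receptors, peptidases and prohormone processing were read in the same way. The vasopressin receptor gene Avpr1a ran from 0.66 to 1.77 FPKM against 0.65 to 1.51 FPKM, a difference of 0.03, and Oxtr from 0.08 to 1.96 FPKM against 0.89 to 1.75 FPKM. The 5 receptor and peptidase genes compared had a median of -0.23, with Lnpep lowest at -0.88. The 12 genes for prohormone processing and dense core vesicles had a median of -0.02, from Pcsk1, a prohormone convertase gene, at -0.40 to Vgf at 0.39. None of either list separated the sides, but Vgf and Chga, which encode granin family proteins, each had 5 of 6 Avp-high libraries above every Avp-low library. Vgf ran from 101 to 143 FPKM against 73.6 to 102 FPKM. It was higher in the Avp-rich library in 6 of 6 within-group pairs, as were Gp1bb and Taf9 outside these lists. The share over all genes was not computed.

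Markers of other structures in the dissected block were set beside these values. The 11 striatal genes had a median difference of 0.00, and their summed level ran from 461 to 1172 FPKM in the Avp-high and from 557 to 962 FPKM in the Avp-low libraries. All 8 cortical genes had a negative difference, with a median of -0.54, and summed to 25.5 to 238 FPKM against 129 to 341 FPKM. Thalamic and habenular genes summed to 26.5 to 179 FPKM against 19.3 to 304 FPKM, with 1 of 6 positive and a median of -0.45. Septal and bed nucleus genes had a median of -0.04, from Zic4 at -0.33 to Crhr2 at 0.68. All 7 choroid plexus genes had a positive difference, with a median of 0.30, although the median of their sum was 14.1 FPKM against 16.0 FPKM, and F1 IUO replicate 4 stood out at 992 FPKM. Blood genes summed to 13.2 to 87.2 FPKM against 27.0 to 195 FPKM. The pituitary hormone genes Prl and Fshb were listed at 0 in all 12 libraries, and Gh1 reached 0.34 FPKM against 1.53 FPKM. The Y-linked gene Eif2s3y ran from 0.00 to 21.6 FPKM against 0.00 to 28.1 FPKM, so both sides held libraries with and without it, but unevenly. On the high side F2 IUO replicate 3 held 21.6 FPKM and F1 IUO replicate 1 was next at 3.72 FPKM. On the low side F1 PNO replicates 1 and 2 and F1 SAL replicate 4 held 19.8, 28.1 and 14.1 FPKM. The part of these structures in the Avp difference was not tested.

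The 12 libraries between the sides, with Avp from 3.43 to 29.0 FPKM, took no part in the comparison above, although the same ranking by Avp set them apart. There the slope of log2(FPKM + 0.1) on log2 Avp was fitted for 17251 genes with limma, which shares the estimate of spread across genes. No gene reached an adjusted p under 0.05 (0% of the genes tested), the smallest adjusted p being 0.673, and 1138 had an unadjusted p under 0.05. Of all genes, 4.2% had a positive slope with an unadjusted p under 0.05 and 2.4% a negative one. F2 PNO replicate 4 stood apart among the 12, with 4682 FPKM of Gh1 and 818 FPKM of Pomc, and 5 of the 12 held 3742 to 12103 FPKM of the choroid plexus gene Ttr, against at most 22.8 FPKM in the other 7.

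Of the 57 hypothalamic genes fitted, 38 had a positive slope (66.7%, beside 56.2% of all genes), and 12 also had an unadjusted p under 0.05 (21.1%, beside 4.2%). The 12 were Oxt, Otp, Lhx5, Foxb1, Pmch, Hcrt, Gpr165, Gpr101, Six3, Ahi1, Syt10 and the lower of the Gnrh1 entries, which come from 6 of the 8 lists. Genes measured in the same libraries are not independent of each other, and none of the 12 passed the adjusted threshold. The median slope of the 57 was 0.13, beside 0.02 for all genes. Markers of other structures also moved with Avp in these libraries. All 11 striatal genes had a positive slope, with a median of 0.20 that was above the hypothalamic one, and 1 had an unadjusted p under 0.05. The 3 Y-linked genes also had positive slopes, with a median of 1.12. Only 1 of 8 cortical and none of 7 choroid plexus genes had a positive slope, with medians of -0.37 and -0.60. None of these 18 Y-linked, cortical and choroid plexus genes had an unadjusted p under 0.05, and the part of these structures in the slopes was not tested.

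Oxt had a slope of 1.18 ± 0.27 (SE, n = 12), and its p was the 8th smallest of all genes (limma adjusted p = 0.673). Its values in these libraries ran from 0.55 to 34.6 FPKM. Otp had a slope of 0.97 ± 0.28 and Lhx5 one of 0.56 ± 0.17, with the 59th and 68th smallest p. Leaving out each library in turn kept the slope of Oxt between 0.92 and 1.42, that of Otp between 0.74 and 1.10, and that of Lhx5 between 0.49 and 0.62. Without F2 PNO replicate 4 they were 1.18, 1.07 and 0.56.

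**Figure D3:**
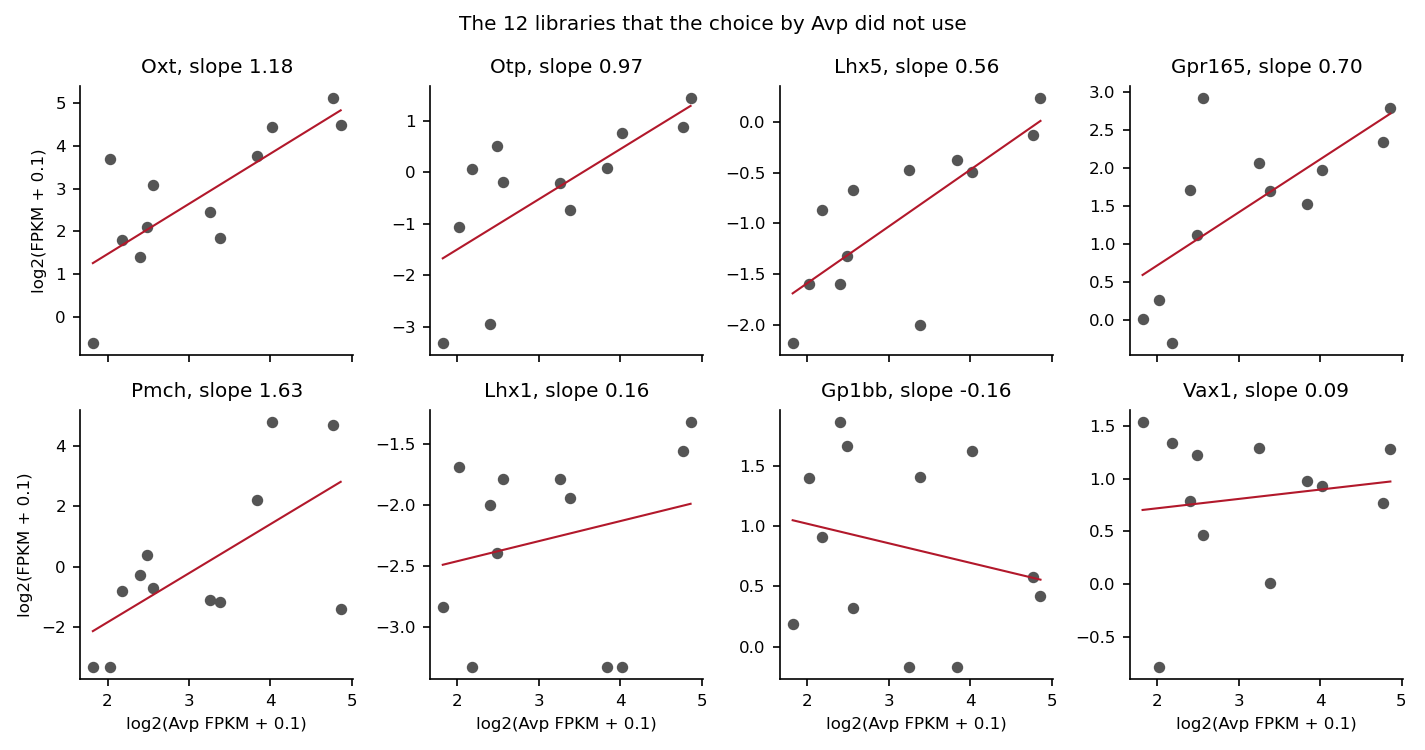
Level of 8 genes as log2(FPKM + 0.1) against log2(Avp FPKM + 0.1) in the 12 libraries that the ranking by Avp left between the sides, 1 point per library, with the fitted line in red. Oxt, Otp, Lhx5 and Gpr165 climb with Avp, at slopes of 1.18, 0.97, 0.56 and 0.70, while Lhx1, Gp1bb and Vax1 have slopes between -0.16 and 0.16.

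The genes that separated the chosen libraries mostly did not keep their direction in the other 12. Of the 31 genes higher in all Avp-high libraries, 15 had a positive slope, beside 56.2% of all genes. Only 2 of the 31, Oxt and Lhx5, had one with an unadjusted p under 0.05 in limma, beside 4.2% of all genes. Of the 32 lower genes, 9 had a negative slope and none had one with an unadjusted p under 0.05, beside 2.4% of all genes. The counts at an unadjusted p under 0.05 were thus near the shares of all genes. Gp1bb had a slope of -0.16 ± 0.20, Taf9 of -0.18 ± 0.15, and Lhx1 of 0.16 ± 0.23, none with an unadjusted p under 0.05. The preoptic gene Vax1 likewise had a slope of 0.09 ± 0.18.

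Outside the magnocellular list, Gpr165, Gpr101, Six3 and Ahi1 of the broadly hypothalamic list had slopes of 0.70 ± 0.20, 0.47 ± 0.17, 0.33 ± 0.13 and 0.25 ± 0.10. They were 4 of 12 on that list with an unadjusted p under 0.05. Six3 at 3.96 to 14.3 FPKM, Ahi1 at 9.87 to 42.7 FPKM and Gpr101 at 0.80 to 9.32 FPKM were present in all 24 libraries. Gpr101 differed by -0.23 in the chosen libraries. The tissue from which their signal came was not tested. The lateral peptides Pmch and Hcrt had steep but loosely determined slopes of 1.63 ± 0.53 and 1.02 ± 0.45. Without F1 IUO replicate 2, which held 25.8 FPKM of Pmch and 41.2 FPKM of Hcrt, these were 1.24 and 0.60, and without F1 SAL replicate 3 they were 2.52 and 1.51. Syt10 and Foxb1 had slopes of 0.37 ± 0.13 and 0.59 ± 0.23, although in the chosen libraries their differences were -0.60 and -0.06. Prdm12 was the only hypothalamic gene with a negative slope and an unadjusted p under 0.05, at -0.80 ± 0.34. Trh and Fezf1, at 0.35 ± 0.16 and 0.68 ± 0.32, did not reach that level in the fit to all 12. Across the 20 fits run, Trh reached it in 5 and Fezf1 in 8 of the 19 in which it was fitted. Without F1 SAL replicate 3 the slope of Fezf1 was 0.32.

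**Figure D4:**
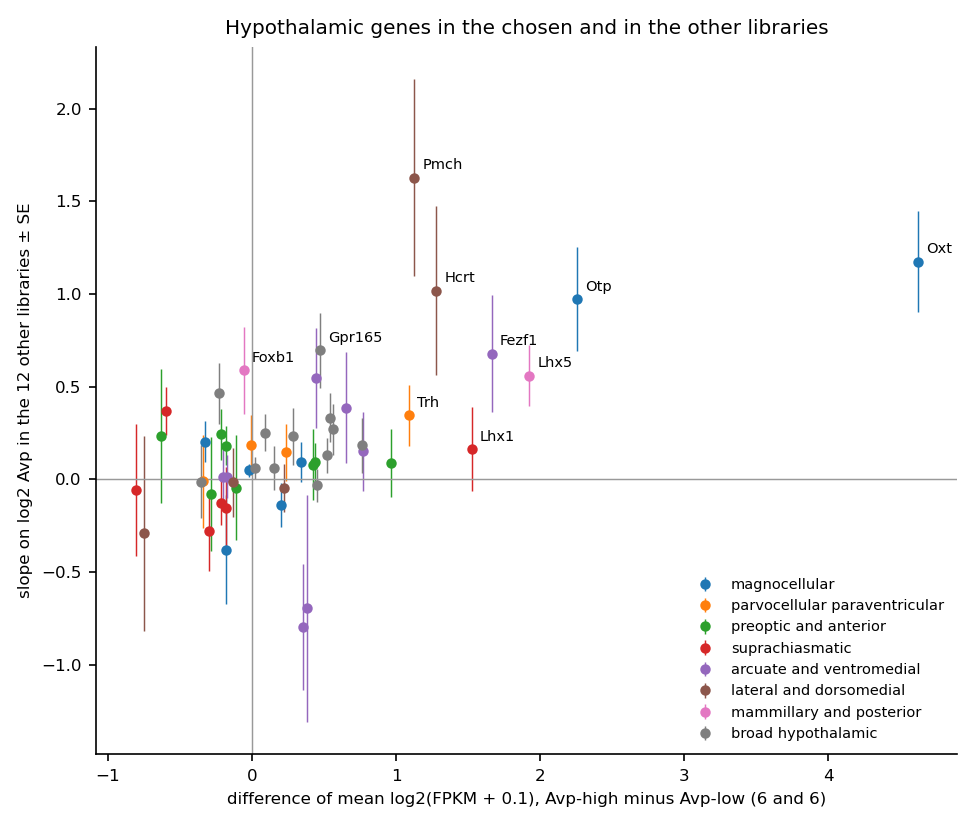
Each hypothalamic gene past both filters (points, coloured by list), with the difference of mean log2(FPKM + 0.1) between the 6 Avp-high and 6 Avp-low libraries on the horizontal axis and the slope on log2 Avp in the 12 other libraries ± SE on the vertical axis. Oxt and Otp lie furthest to the right, at differences of 4.62 and 2.26 and slopes of 1.18 and 0.97, Pmch lies highest, with a slope of 1.63 at a difference of 1.13, while Lhx1 has a difference of 1.52 and a slope of 0.16.

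The 10 smallest p over the 12 libraries belonged to Rplp2, Ccl19, LOC108348118, Pcdh17, RT1-T24-1, Lrrc4c, Klhdc4, Oxt, AABR07035506.1 and Rpl39l, all with an adjusted p of 0.673 in limma. Oxt was the only hypothalamic list gene among them. Rplp2, a ribosomal stalk protein gene, had a slope of -0.69 ± 0.13 and Pcdh17, a protocadherin gene, one of 0.34 ± 0.08. In the chosen libraries none of the 9 other than Oxt separated the sides. Rplp2 ran there from 1.17 to 478 FPKM on the high side against 285 to 406 FPKM on the low side.

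The study's own groups were compared last, since the labels and not Avp define them. Avp was 39.8 ± 23.9 FPKM (SD, n = 4) in F1 IUO, 11.99 ± 11.8 FPKM in F1 SAL and 2.70 ± 1.76 FPKM in F1 PNO. In F2 it was 27.5 ± 39.1 FPKM in IUO, 77.0 ± 91.8 FPKM in SAL and 14.1 ± 22.4 FPKM in PNO, so the SD exceeded the mean in all 3 F2 groups. F1 IUO at 14.2 to 68.3 FPKM and F1 PNO at 1.09 to 5.18 FPKM did not overlap, a pair singled out after the values were seen. Of 17305 other genes with at least 0.1 FPKM in 4 or more of these 8 libraries, 1083 (6.26%) were likewise higher in all F1 IUO than in all F1 PNO libraries. Oxt, Otp and Lhx5 were among them. The values were, for Oxt, 13.4 to 42.9 FPKM against 0.34 to 6.0 FPKM, for Otp 0.96 to 2.21 FPKM against 0.00 to 0.54 FPKM, and for Lhx5 0.41 to 1.28 FPKM against 0.11 to 0.23 FPKM. In F2 the corresponding groups overlapped for Avp, Oxt, Otp and Lhx5.

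**Figure D5:**
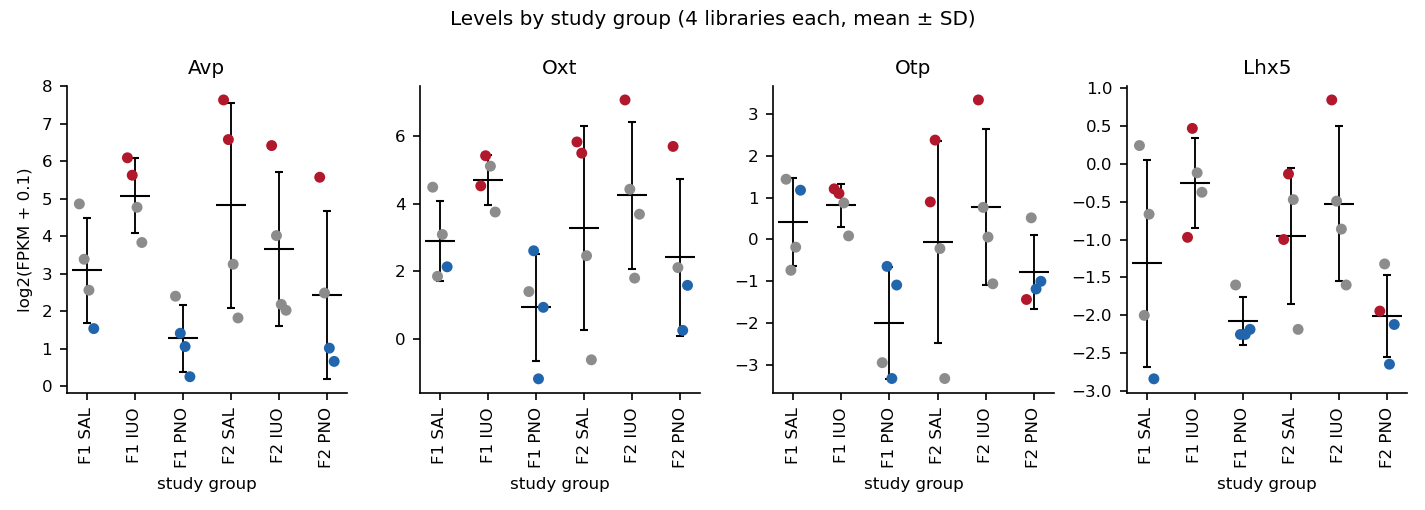
Level of Avp, Oxt, Otp and Lhx5 as log2(FPKM + 0.1) in the 4 libraries of each study group (points, coloured red for Avp-high, blue for Avp-low and grey for the other libraries), with the group mean and SD as black bars. F1 IUO lies above F1 PNO for all 4 genes, and the F2 groups overlap.

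Across the 6 groups a limma F test on 19133 genes besides Avp found 27 with an adjusted p under 0.05 (0.141%) and 16.6% with an unadjusted p under 0.05. None of the 63 hypothalamic genes fitted was among the 27, and 6 had an unadjusted p under 0.05. The limma adjusted p was 0.269 for Avp, 0.356 for Oxt, 0.317 for Otp, 0.244 for Lhx5 and 0.219 for Hcrt. Leaving out any of the 24 libraries, or changing the filter, pseudocount, scaling or replicate term, gave no adjusted p under 0.05 for Avp or any listed hypothalamic gene. The smallest for Avp was 0.13, without F2 PNO replicate 1.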

How the data were processed

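Total RNA of the NAc was sequenced in 24 libraries, 4 for each of 6 groups. Per the labels and the study's methods, the authors used HISAT2, SAMtools, StringTie and edgeR, and the deposited FPKM values were estimated by StringTie on 1 transcriptome merged across samples. Versions, genome build and strand setting are not given in the sources used here. Each table lists 23950 genes, of which 4782 to 7532 were listed at 0 in a library. The values sum to 535866 to 766781 FPKM per library, and no 2 libraries were identical. Depth is unknown, so no interval or floor was computed.

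Libraries were ranked by Avp and the top and bottom 6 taken. Differences are of mean log2(FPKM + 0.1), for genes with at least 0.1 FPKM in 6 or more of those 12. The slope on log2 Avp (0.1 FPKM in 6 or more of the other 12) and the F test among groups (in 4 or more of the 24) were fitted with limma 3.58.1 in R 4.3.3, with a mean-variance trend and Benjamini-Hochberg adjustment over all genes fitted. The slope was fitted without study group, and both fits without replicate number. The edgeR test needs counts and was not run. The fits were tried on simulated data in which each gene varied independently, unlike genes measured in the same libraries. That trial does not check the p-values of genes that move together. Genes named are Avp, Oxt and Otp, the 25 higher and 10 lower genes with the largest differences among those not overlapping, the non-overlapping members and both ends of each of 18 gene lists, and the 10 smallest p of the slope, with further list members named for context after their values were seen. The libraries and lists were chosen with earlier results of these data known. Promoter windows came from RefSeq (GRCr8), where 21 of the 31 higher genes had one, of which 4 held the E-box, 3 the half-site and 0 TAATTA. Alternatives changed the filter, pseudocount, scaling, number of libraries, covariates and single libraries.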

Additional observations from a re-analysis of the deposited data

Results flagged for a closer look

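Avp, Oxt, Otp, Lhx5, Lhx1 and Gp1bb were looked at for a single library far from the rest, in the 6 study groups and, except for Avp, within the Avp-high and Avp-low libraries, 46 sets in all. The gap of the extreme library was divided by the range of log2(FPKM + 0.1) in its set, and chance marks about 1 in 20 sets. Lhx5 in F1 PNO replicate 3 was the only one marked, at 0.23 FPKM beside 0.11 to 0.12 FPKM in the other 3 libraries of the group. That library lay among the 12 between the sides, with 5.18 FPKM of Avp.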

How the results depend on the processing

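The number of genes that separated the sides depended on how many libraries were taken. Separation is easier to meet with fewer libraries, also when 1 is left out. A higher count with fewer libraries therefore says little about the libraries removed. With 4 against 4 libraries, 1122 genes were higher (6.5% of 17257) and 759 lower (4.4%). Of the 56 hypothalamic genes compared there, 12 were higher (21.4%), namely Oxt, Otp, Lhx5, Lhx1, Pou3f2, Sim1, Gal, Fezf1, Six3, Baiap3, Ecel1 and Magel2, and none lower. Lhx1 and Sim1 passed the filter there through their values in the Avp-high libraries. With 8 against 8 libraries, 3 of 17078 genes were higher (0.0176%), namely Oxt, Commd5 and Rhbdf1, and 1 was lower (0.00586%), Btbd8. With the highest against the lowest Avp library within each study group, 9 of 17090 genes were higher (0.0527%) and 8 lower (0.0468%). None of these was hypothalamic, and upper-quartile rescaling gave 55 higher. Shares of all genes were not computed for the rescaling or for leaving out a library. Leaving out each of the 12 libraries in turn gave 33 to 183 higher genes, the most without F2 PNO replicate 1 (183), F1 IUO replicate 1 (133) and F1 SAL replicate 4 (121), with 68 without F2 PNO replicate 3 and 50 without F2 SAL replicate 3. It gave 34 to 149 lower genes, the most without F1 SAL replicate 4 (149). Removing F1 IUO replicate 1 or 4, F2 IUO replicate 3, F2 PNO replicate 1 or 3, F2 SAL replicate 3 or F1 PNO replicate 2 also moved that count by over 1.5 times, to between 50 and 94.

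Over the 12 other libraries 0 genes had an adjusted p under 0.05 in limma under each of the 19 alternatives. The replicate block gave 0 with 446 at an unadjusted p under 0.05. Same-numbered libraries of different groups did not deviate together (median r -0.018 over 60 pairs), so the numbers were not taken as pairs. Oxt and Gpr165 kept a positive slope with an unadjusted p under 0.05 in all 20 fits, and Otp and Lhx5 in 19 and 18 of the 19 in which they were fitted. Of the hypothalamic genes fitted, 10.5 to 26.8% met that rule, beside 1.17 to 5.58% of all genes. The lowest share came with study group as a covariate, where 6 of 57 met it, beside 1.88% of all genes. The 6 were Agrp, Gpr165, Otp, Oxt, Pmch and Six3. Lhx5, Hcrt, Foxb1, Gpr101, Ahi1, Syt10 and Gnrh1 did not meet it in that fit. The slope of Gp1bb turned to 0.0815 with group as a covariate and that of Vax1 to -0.0357 with the replicate block, and leaving out each library gave -0.0796 to 0.205 for Vax1. The F test among groups gave 11 genes with a pseudocount of 1 and 29 with the replicate block, and 6 to 121 on leaving out a library, with 121 without F2 PNO replicate 4 and 6 to 17 on removing each of 16 others alone. The 7 whose removal gave 20 to 40 were F1 IUO replicates 1 and 4, F2 IUO replicate 3, F1 PNO replicate 3, F2 PNO replicate 1, F1 SAL replicate 3 and F2 SAL replicate 2. Of 1343 recomputed differences of named genes, 1300 moved by less than 1 SD and none of the non-overlapping genes changed sign. FPKM without depth limits what can be said of Lhx1, Lhx5 and other genes under 1 FPKM.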
